A study of Hylyphantes graminicola with 5 samples.

Results

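The Th-positive cells of the adult brain of the web-building spider Hylyphantes graminicola are the cells that carry transcripts of tyrosine hydroxylase, the enzyme that opens catecholamine synthesis. They were taken as kept cells with no unique molecular identifier (UMI, 1 counted RNA molecule) of Tdc2 (evm.TU.CTG-407.1, tyrosine decarboxylase) and with either at least 2 UMIs of Th (evm.TU.CTG-182.8) or at least 1 of Th together with at least 1 of Ddc (evm.TU.CTG-632.8, aromatic amino acid decarboxylase). The rule found 127 cells among 31147 kept cells (0.408%) and 40233 barcodes. A kept cell had 500 to 60000 UMIs, at least 200 genes and under 40% of its UMIs from mitochondrial genes. The data were droplet single-cell RNA-seq libraries of dissociated whole brains, 3 from females and 2 from males. Each library pooled 35 to 40 untreated adult brains of mixed age, so the age and the individual of a cell are unknown and a library, not a cell or a spider, is the replicate. The labels do not say whether libraries of 1 sex came from separate dissections, so p-values measure only the spread between these libraries.

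Tyrosine hydroxylase turns tyrosine into L-DOPA, and aromatic amino acid decarboxylase turns L-DOPA into dopamine. In vertebrates dopamine beta-hydroxylase goes on to norepinephrine, whereas in insects a related enzyme, tyramine beta-hydroxylase, acts after tyrosine decarboxylase to make octopamine. A vesicular monoamine transporter, Vmat, loads all of these amines into vesicles. Gad1, glutamate decarboxylase, makes the inhibitory transmitter GABA. VAChT loads acetylcholine, and Trh, tryptophan hydroxylase, opens serotonin synthesis. Gene names are those the study paired with its gene models, and the name Dbh does not by itself say which of the 2 hydroxylations the spider enzyme performs.

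The Th-positive cells were few in every library. Female libraries 1, 2 and 3 held 10, 7 and 39 of them, and male libraries 1 and 2 held 48 and 23. As a share of kept cells this was 0.303% (exact 95% interval 0.146 to 0.557), 0.147% (0.0591 to 0.302) and 0.507% (0.361 to 0.692) in females. In males it was 0.662% (0.489 to 0.877) and 0.283% (0.179 to 0.424). The female and male ranges overlapped, with means of 0.319% ± 0.180 (SD, n = 3) and 0.473% ± 0.269 (SD, n = 2). The difference of 0.154 percentage points did not pass a two-sided exact permutation test (p = 0.6), and 3 libraries against 2 cannot go below 0.2.

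The depth of the Th-positive cells was set beside this share, although a rule on Th UMIs itself favours deep cells. Libraries held 12269605 to 35943668 UMIs in all, and the Th-positive cells had medians of 2719, 2177, 6302, 8228.5 and 3867 UMIs in the same order of libraries (female 1, 2, 3, male 1, 2, kept throughout). The medians of the other kept cells were 2590.5, 1924, 3089, 2979 and 2568 UMIs. With every cell thinned to 2000 UMIs, and shallower cells left out, the shares were 0.269%, 0.0437%, 0.325%, 0.199% and 0.223%, and the male minus female difference fell to -0.00179 points. Intervals and limits given here cover counting error only. Without male 1, the library with the largest share, the difference was -0.0364 points.

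**Figure D1:**
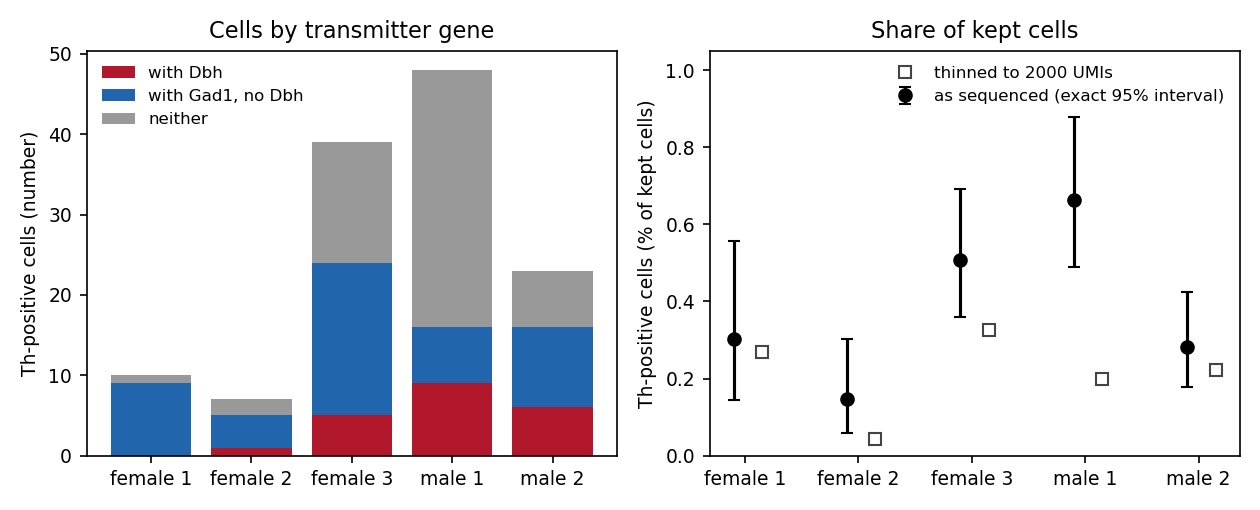
Left, number of Th-positive cells in each library (bars from 0), split by whether a cell had a UMI of Dbh, of Gad1 with no Dbh, or of neither. Right, Th-positive cells as a percentage of kept cells, as sequenced (filled circles, exact 95% interval) and after thinning to 2000 UMIs per cell (open squares): male 1 was highest as sequenced at 0.662% and female 3 was highest after thinning at 0.325%.

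The cells were selected on their Th, Ddc and Tdc2 counts, so values of these genes are given as a description. The 127 cells held 515 of the 696 Th UMIs of all kept cells (74.0%), with a median of 2 and a maximum of 32 per cell. Their Th level was 840, 427, 431, 486 and 644 CPM (UMIs of a gene per 1000000 UMIs, both summed over the cells of a kind in a library). Ddc was detected in 69 cells (54.3%), at 137, 256, 232, 160 and 155 CPM. At the threshold, 30 cells had exactly 2 Th UMIs and no Ddc (median 3545 UMIs per cell) and 31 had 1 Th UMI with Ddc (median 7638). Just outside it lay 175 kept cells with 1 Th UMI and neither Ddc nor Tdc2 (median 5033 UMIs), of which 3 (1.71%) had Dbh and 21 had Gad1. A further 4 cells were left out for a Tdc2 UMI.

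Genes that mark neurons in general were detected in the cells. Syt1, the synaptic vesicle calcium sensor synaptotagmin, was detected in all 127, elav, a neuronal RNA-binding protein, in 91, nSyb, the vesicle fusion protein synaptobrevin, in 55 and brp, an active zone scaffold, in 75. In 394 cells gated on hemocyte (blood cell) genes, which should lack Th and Syt1, Th was found in 0, a count under which a share as high as 0.761% could lie, and Syt1 in 158. These hemocytes were shallower, with a median of 2818 UMIs against 5956. The summed level of the 5 hemocyte genes in Th-positive cells was 0 to 39.1 CPM over libraries, that of the 8 glial genes 0 to 39.1 CPM and that of the 7 fat body genes 213 to 543 CPM. In depth-matched cells of the same libraries those sums were 7.99 to 91.0, 40.5 to 187 and 284 to 1045 CPM. A simulated-doublet score marked 20 Th-positive cells (15.7%), 13.8% of the depth-matched cells and 5.44% of all kept cells. Pairs of libraries shared 7 to 25 barcodes, 2 Th-positive barcodes also occurred in another library, and none was Th-positive in both.

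The depth-matched cells were the reference for kept cells of like depth, with no filter for neurons. They were 2440 kept cells with no Th and no Tdc2 UMI, drawn up to 20 per Th-positive cell from the same library and the same bin of 0.25 log2 units of UMIs per cell (median 5787 UMIs). Gad1 stood out among the transmitter genes. It was detected in 50 of 127 Th-positive cells (39.4%) and in 106 matched cells (4.34%), and its share was higher in 5 of 5 libraries, by 47.8 percentage points on average. The two-sided exact sign-flip permutation test over libraries gave the smallest p that 5 pairs allow, which was 0.156 after adjustment over the 5 transmitter genes tested. Thinned to 2000 UMIs the gap was 39.8 points.

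Dbh was the other transmitter gene with a large gap. It was detected in 21 Th-positive cells (16.5%) and in 25 matched cells (1.02%), a mean difference of 13.4 points that was positive in 4 of 5 libraries (exact permutation p = 0.125, adjusted 0.208). Female 1 had no Dbh UMI in its 10 Th-positive cells. VAChT went the other way, at 8 cells (6.30%) against 392 (16.1%), lower in 5 of 5 libraries with a mean difference of -9.18 points (again the smallest exact permutation p, adjusted 0.156). None of these shares passed 0.05 after adjustment, which 5 libraries could not reach. Among hemocytes, taken as the background of free RNA, 1 of 394 (0.254%) had Dbh, 1 had Gad1 and 1.78% had VAChT.

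The vesicular transporter was barely detected. Vmat had 7 UMIs in all, in 6 of 127 Th-positive cells (4.72%), against 17 matched cells (0.697%), with a mean difference of 3.73 points (exact permutation p = 0.25, higher in 3 of 5 libraries). By library its level was 19.5, 0, 8.80, 6.39 and 0 CPM. At this depth its presence or absence in a single cell could not be read. Trh was found in 1 Th-positive cell and 31 matched cells (1.27%), at or near 1 UMI.

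Dbh and Gad1 almost never met in a Th-positive cell. Of the 127 cells, 21 had Dbh, 49 had Gad1 and no Dbh, and 57 had neither. Only 1 cell had both, with 11 Dbh UMIs and 1 Gad1 UMI, and it is counted with the Dbh cells. These 3 kinds were formed after the values were seen and are described without a test. The split by Dbh alone, also chosen with earlier results of these data known, is tested further on. By library the Dbh cells numbered 0, 1, 5, 9 and 6, the Gad1 cells 9, 4, 19, 7 and 10, and the cells with neither 1, 2, 15, 32 and 7. The Gad1 kind made up 9 of the 10 Th-positive cells of female 1, and the kind with neither 32 of the 48 of male 1, while by number the Gad1 cells were most in female 3.

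Th and Ddc chose the cells, so their values in each kind are a description. Dbh cells had a median of 6 Th UMIs (range 1 to 32), a median of 13 Dbh UMIs and a Ddc UMI in 20 of 21, at a median of 10438 UMIs per cell. Gad1 cells had a median of 3 Th UMIs (maximum 20), 5 Gad1 UMIs and Ddc in 27 of 49 (55.1%), at a median of 3861 UMIs. Cells with neither had a median of 2 Th UMIs (maximum 10) and Ddc in 22 of 57 (38.6%), at a median of 6566 UMIs, and 12 of them had 3 or more Th UMIs against 29 of the Gad1 cells. The Dbh cells were the deepest. Median mitochondrial shares were 9.45%, 15.3% and 15.6%, and doublet calls were 5, 5 and 10 cells.

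Summed per library, Th was higher in the Dbh cells than in the Gad1 cells in both males and lower in female 2 and female 3. In Dbh cells Th was 268, 430, 991 and 920 CPM (female 2, female 3, male 1, male 2), and Dbh was 268, 990, 1083 and 4466 CPM. The female 2 value rests on 1 cell. In Gad1 cells Th was 846, 438, 609, 614 and 584 CPM over the 5 libraries. In octopaminergic cells, 150 kept cells with at least 2 Tdc2 UMIs and no Th, Dbh was detected in 68.0% at 932, 520, 696, 569 and 2190 CPM.

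Dbh cells were rich in neuropeptide transcripts. The 71 genes of a neuropeptide list, fixed with earlier results known, made up 27.8%, 17.6%, 14.3% and 15.6% of the UMIs of Dbh cells in the 4 libraries that had them, and a median of 20.2% per cell (range 3.20 to 37.5). The medians per cell were 1.15% in Gad1 cells, 2.12% in cells with neither and 1.67% in matched cells. Summed per library, the share in matched cells was 6.15% to 10.97%. Myoinhibitory peptide (Mip, evm.TU.CTG-1394.2), which in insects inhibits muscle and gut contraction, was among the frequent ones. At least 10 Mip UMIs were present in 18 of 21 Dbh cells, 2 of 49 Gad1 cells, 4 of 57 cells with neither, 206 of 2440 matched cells (8.44%) and 4 of 394 hemocytes (1.02%). AstB (evm.TU.CTG-578.5), allatostatin B, is another name for the same peptide family. The study lists nearly the same predicted protein sequence for Mip and AstB. Reads could therefore be split between them, the level of either gene is uncertain, and their joint presence is not 2 separate signals.

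A combination of peptides marked most of the Dbh cells. In 16 of 21, Mip, the FMRFamide-family precursor FMRFa_3 and Proc, the myotropic peptide proctolin, each had 10 UMIs or more. Those 16 cells came from 3 libraries (3 in female 3, 7 in male 1, 6 in male 2). Their medians were 425.5 Mip, 213 FMRFa_3 and 500.5 Proc UMIs, with ranges of 31 to 1696, 94 to 630 and 85 to 1356, so none sat near the limit of 10. All 16 also had at least 62 UMIs of sNPF, short neuropeptide F, which in flies modulates feeding and is common in mushroom body neurons. The same combination was present in 1 of 150 octopaminergic cells, 20 of 2440 matched cells (0.820%), 2 of 393 GABA cells, 1 of the 57 cells with neither and 0 of the 49 Gad1 cells. Of the 25 matched cells with a Dbh UMI, 6 had it.

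The remaining Dbh cells fell outside that combination. There were 2 with Mip alone of these 3 peptides, at 770 and 1491 UMIs, 1 in female 2 and 1 in female 3, with 1 to 2 Th UMIs. Another 3 had at most 2 Mip UMIs and no FMRFa_3, and they carried 7 to 28 Th, 3 to 22 Ddc, 15 to 33 Dbh and 243 to 398 sNPF UMIs. These 3 cells, 1 in female 3 and 2 in male 1, held 2 of the 6 Vmat detections, and 2 of them were called doublets.

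The comparison of Th-positive cells with and without Dbh was tested in the 4 libraries that had both. Of 1145 genes tested, 3 were called at a Benjamini-Hochberg adjusted p of 0.05 by edgeR's quasi-likelihood test with library as a block (0.262% of genes), all higher with Dbh. Mip was 206500, 43540, 40790 and 30140 CPM with Dbh and 558, 77.4, 567 and 48.9 CPM without, and the groups did not overlap. Its log2 difference was 8.35 (SE 0.82, edgeR adjusted p = 0.0174). With 11, 21, 193 and 4 UMIs without Dbh, Mip could pass the filter on low counts through the Dbh cells alone. Its call is therefore given as a description. An unnamed gene, evm.TU.CTG-937.21, was 11530, 14750, 9703 and 14790 CPM with Dbh and 305, 597, 603 and 904 CPM without (log2 4.57, SE 0.34, edgeR adjusted p = 0.00953). At least 10 UMIs of it were present in all 21 Dbh cells, against 2 of 49 Gad1 cells, 9 of 57 cells with neither and 8.03% of matched cells. The third call, evm.TU.CTG-783.12, was present in 9 of 21 Dbh cells and also in 174 of 394 hemocytes (log2 9.17, edgeR adjusted p = 0.0174), and the part of free RNA in it was not tested. It had 0, 1, 0 and 0 UMIs without Dbh, so it could pass the filter on low counts through the Dbh cells alone.

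The other peptides of the combination did not pass this test. FMRFa_3 was 0, 14070, 15580 and 18200 CPM with Dbh and 0, 837, 1387 and 61.1 CPM without (log2 5.21, edgeR adjusted p = 0.232), high in every library but female 2 with its single cell. Proc was 268, 25360, 40230 and 41020 CPM with Dbh and 9034, 2655, 4682 and 8195 CPM without (log2 2.16, adjusted p = 0.859). sNPF was 1877, 26330, 26550 and 18160 CPM against 1878, 1851, 2008 and 1881 CPM (log2 3.08, adjusted p = 0.358). In all 3 the female 2 cell was the exception. Of the 71 neuropeptide genes, 22 passed the filter on low counts, 1 was called and their median log2 difference was 0.80, beside -0.15 over all tested genes. A gene near 0 without Dbh could pass this filter through the Dbh cells alone, so the count and median are a description and support nothing. Without female 2 the count of calls was 69, without female 3 or without male 2 it was 0, and DESeq2 called 95 genes (8.3%).

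The Gad1 cells had a different set of genes. Gad1 itself was 1032, 876, 814, 787 and 719 CPM in them, beside 1139, 1020, 931, 757 and 1212 CPM in GABA cells, 393 kept cells with at least 2 Gad1 UMIs and no Th or Tdc2. The unnamed gene evm.TU.CTG-1345.4 was detected in 47 of 49 Gad1 cells (95.9%) and 374 of 393 GABA cells (95.2%), and in 0 of 21 Dbh cells, 14 of 57 cells with neither and 132 matched cells (5.41%). Ddc was found in 72 GABA cells (18.3%) and 168 matched cells (6.89%), so it was not confined to Th-positive cells.

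Other genes were detected more widely in Gad1 cells than in GABA cells, although the Gad1 cells were shallower (median 3861 against 5784 UMIs). They were singled out after their values were seen. The gene evm.TU.CTG-1504.18, on the study's list of transmitter receptors, was detected in 31 of 49 Gad1 cells (63.3%), 77 of 393 GABA cells (19.6%), 24 of 57 cells with neither (42.1%) and 3 of 21 Dbh cells. Dop1R1, which in flies is a dopamine receptor that raises cAMP, was detected in 13 Gad1 cells (26.5%), 17 GABA cells (4.33%), 0 Dbh cells and 68 matched cells (2.79%). Its CPM in Gad1 cells was 145, 0, 92.0, 0 and 22.5, so it was found in 3 of 5 libraries. The hemocyte background was 0 of 394 cells for Dop1R1 and 4 for evm.TU.CTG-1504.18.

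RYamide peptides were abundant in a subset of the Gad1 cells, and also in some cells of the other kinds. RYa_2 and RYa_3 encode precursors whose products are linked to feeding in flies, and both had 10 UMIs or more in 14 of 49 Gad1 cells (28.6%). The study lists the same predicted protein sequence for both genes. Reads could therefore be split between them, the level of either is uncertain, and their joint presence is not 2 separate signals. Both also had 10 UMIs or more in 5 of 21 Dbh cells (23.8%) and 6 of 57 cells with neither (10.5%), so in 19.7% of all Th-positive cells. The share was 17 of 393 GABA cells (4.33%) and 84 of 2440 matched cells (3.44%), beside a background of 2 of 394 hemocytes (0.508%). Gad1 cells held 4252, 0, 2116, 557 and 3166 CPM of RYa_2 and 4933, 87.6, 1889, 787 and 6153 CPM of RYa_3, so both were absent or low in female 2. Matched cells were at 265, 6491, 2640, 2750 and 365 CPM of RYa_2, and the library ranges overlapped.

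**Figure D2:**
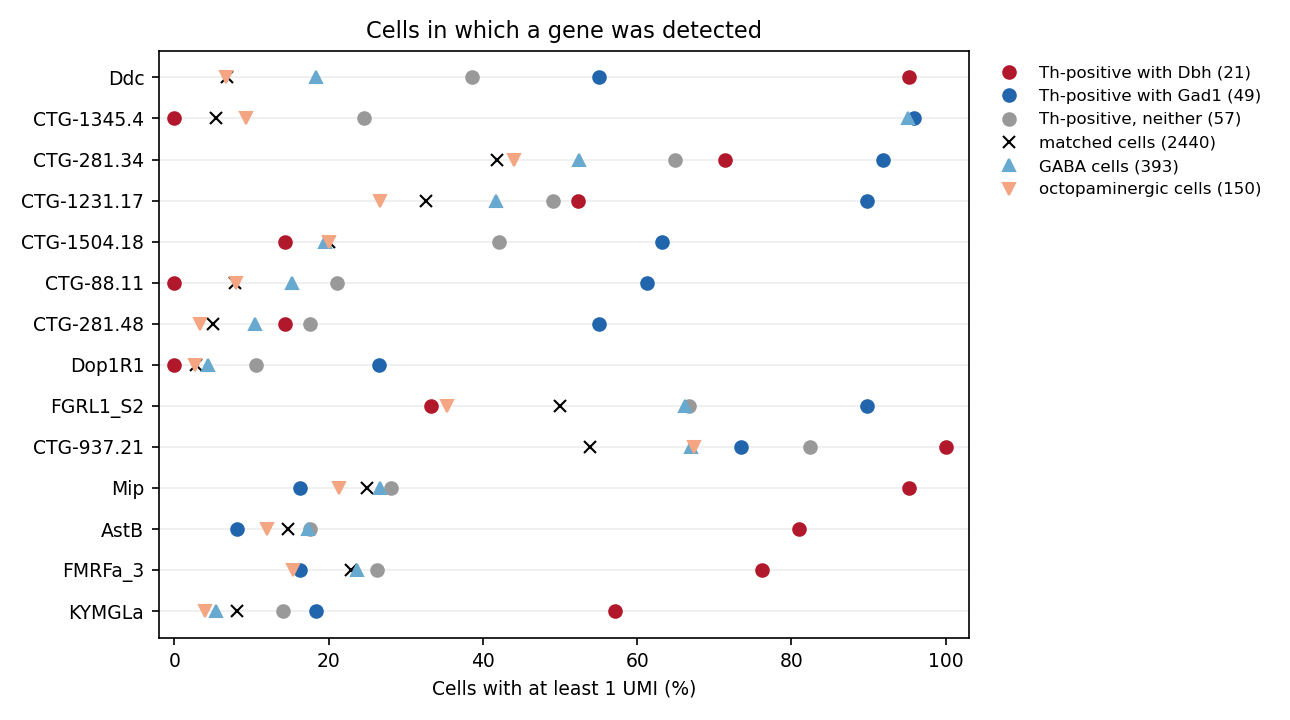
Percentage of cells with at least 1 UMI of each gene in Dbh, Gad1 and neither kinds of Th-positive cells and in matched, octopaminergic and GABA cells, with the number of cells of each kind in the legend. Gene models without a name are given by their identifier; CTG-937.21 was detected in 21 of 21 Dbh cells and CTG-1345.4 in 47 of 49 Gad1 cells.

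The 57 cells with neither Dbh nor Gad1 were set beside the matched cells in the peptides they carried. Summed per library, the peptide share averaged 4.48% in them and 8.35% in matched cells. The medians per cell went the other way, at 2.12% and 1.67%, and single matched cells reached 84.2%. At least 10 UMIs of Proc were present in 14 of 57 (24.6%) against 20.4% of matched cells, and at least 10 of sNPF in 12 (21.1%) against 26.4%. Mip at that level was in 4 (7.02%) against 8.44%, and both RYa genes together in 6 (10.5%) against 3.44%. These cells also held genes that were frequent in the Gad1 kind, evm.TU.CTG-1345.4 in 24.6% against 5.41% of matched cells and evm.TU.CTG-1504.18 in 42.1% against 488 of the 2440. VAChT was found in 5 of them, Vmat in 1 and Trh in 1.

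Across all genes, Th-positive cells were then compared with matched cells by UMI sums per library. Of 4996 genes tested, 37 were called by edgeR (0.741% of genes), 12 higher (0.24%) and 25 lower (0.5%), and 35 of the 37 moved the same way in every library. DESeq2 called 81 (1.62%). With the matched cells held to under 3 UMIs of the hemocyte, glia and fat body genes, 25 genes were called, 22 of them among the 37. No name was paired with 28 of the 37 in the part of the study's tables used here. In bulk sums of this kind, fewer cells with a transcript and less of it per cell cannot be told apart.

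Gad1 was the named gene with the largest rise. It was 977, 427, 337, 89.5 and 237 CPM in Th-positive cells and 15.99, 28.9, 39.8, 23.0 and 16.1 CPM in matched cells, with no overlap (log2 3.48, SE 0.46, edgeR adjusted p = 0.00582). The GABA-associated gene evm.TU.CTG-1345.4 moved with it, at 879, 555, 534, 256 and 459 CPM against 15.99, 35.6, 82.7, 49.9 and 30.4 CPM (log2 3.45, edgeR adjusted p = 0.00407). The unnamed gene model evm.TU.CTG-281.48-evm.TU.CTG-281.51 also rose (log2 3.54, edgeR adjusted p = 0.00486). Both Gad1 and evm.TU.CTG-1345.4 lost their call without male 2 and with another random draw of matched cells, and kept their direction there.

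A peptide and a receptor-like gene also rose. KYMGLa, a neuropeptide precursor on the study's list, was 234.4, 171, 502, 650 and 592 CPM in Th-positive cells and 87.9, 109, 173, 130 and 106 CPM in matched cells (log2 1.66, SE 0.28, edgeR adjusted p = 0.0235). FGRL1_S2, named for fibroblast growth factor receptor-like 1, was 1055, 683, 698, 524 and 407 CPM against 339, 260, 293, 343 and 254 CPM (log2 0.94, SE 0.16, edgeR adjusted p = 0.0285). For both, every library of Th-positive cells lay above every library of matched cells except that KYMGLa in female 2 (171 CPM) was just under the highest matched library (173 CPM). However, all KYMGLa UMIs of female 1 (12) and of female 2 (4) came from 1 cell each. Without that cell both libraries were at 0 CPM, below their matched cells. KYMGLa was unevenly spread, with 10 UMIs or more in 6 of 21 Dbh cells, 4 of 49 Gad1 cells and 3 of 57 cells with neither, against 63 of 2440 matched cells (2.58%). KYMGLa lost its call when female 3, male 1 or male 2 was left out, and FGRL1_S2 when any 1 library was.

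Several peptide genes were lower in Th-positive cells. GnRH, named for the gonadotropin-releasing hormone family, was 19.5, 0, 20.5, 4.26 and 7.40 CPM against 51.4, 31.2, 772, 2944 and 3176 CPM in matched cells (log2 -7.21, SE 0.77, edgeR adjusted p = 0.00486). DH31_2, a diuretic hormone precursor, was 117, 0, 64.5, 558 and 274 CPM against 26480, 10370, 4139, 11810 and 2606 CPM (log2 -5.65, SE 0.73, edgeR adjusted p = 0.00515). These sums were carried by a few very rich matched cells, since 8 of 2440 had 10 or more GnRH UMIs (maximum 13654) and 108 had 10 or more of DH31_2 (maximum 21641). The GnRH call was lost without male 2 and with another draw of matched cells. The DH31_2 call was lost without female 3, without cells called doublets, with another draw and with 5 matched cells per Th-positive cell.

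Cal_3, named as a calcitonin-family precursor, was lower (log2 -4.64, edgeR adjusted p = 0.00515), as were the sulfakinin gene Dsk (log2 -2.36, adjusted p = 0.016) and Ele_2, an elevenin precursor (log2 -3.01, adjusted p = 0.043). Each of these 3 lost its call without male 1 or without male 2. The study lists nearly the same predicted protein sequence for Ele_1 and Ele_2, so reads could be split between them and the level of either is uncertain. Of the 71 neuropeptide genes, 38 passed the filter, 1 was called higher and 5 lower, and their median log2 difference was -1.08 beside -0.07 over all tested genes. A gene near 0 in Th-positive cells, GnRH among them, could pass the filter through a few rich matched cells alone. This count and median are therefore a description and support nothing. The lead among unnamed genes that fell was evm.TU.CTG-407.7, at 0, 0, 2.93, 0 and 0 CPM against 236, 1282, 293, 39.2 and 205 CPM, that is 1 UMI in all Th-positive cells (edgeR adjusted p = 6.32e-05). It was called in every alternative that tested it, but could pass the filter through the matched cells alone. The other was evm.TU.CTG-783.11 (log2 -4.67, edgeR adjusted p = 6.32e-05). With 0, 5, 30, 3 and 14 UMIs in Th-positive cells, it too could pass the filter through the matched cells alone.

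Among other named genes Cadps, the calcium-dependent activator of dense-core vesicle release, was lower. It was 527, 597, 710, 818 and 592 CPM against 1006, 1088, 959, 1172 and 1017 CPM, without overlap (log2 -0.85, SE 0.16, edgeR adjusted p = 0.0484). It sat at the edge of the threshold, and each of the 5 libraries, left out in turn, ended the call. The 4 neuron genes were tested and none was called, with elav at log2 -0.63 (edgeR adjusted p = 0.313). All 4 were lower than in matched cells, with a median log2 difference of -0.45, and 2 had an unadjusted edgeR p under 0.05. Of the 40 transmitter receptor genes, 10 passed the filter, 0 were called and 1 was under an unadjusted p of 0.05, evm.TU.CTG-1504.18 (log2 1.24, edgeR adjusted p = 0.0955). The mushroom body list had 4 genes tested, fat body 6 and identity factors 2, and none was called. Glial and hemocyte genes were too low to test.

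**Figure D3:**
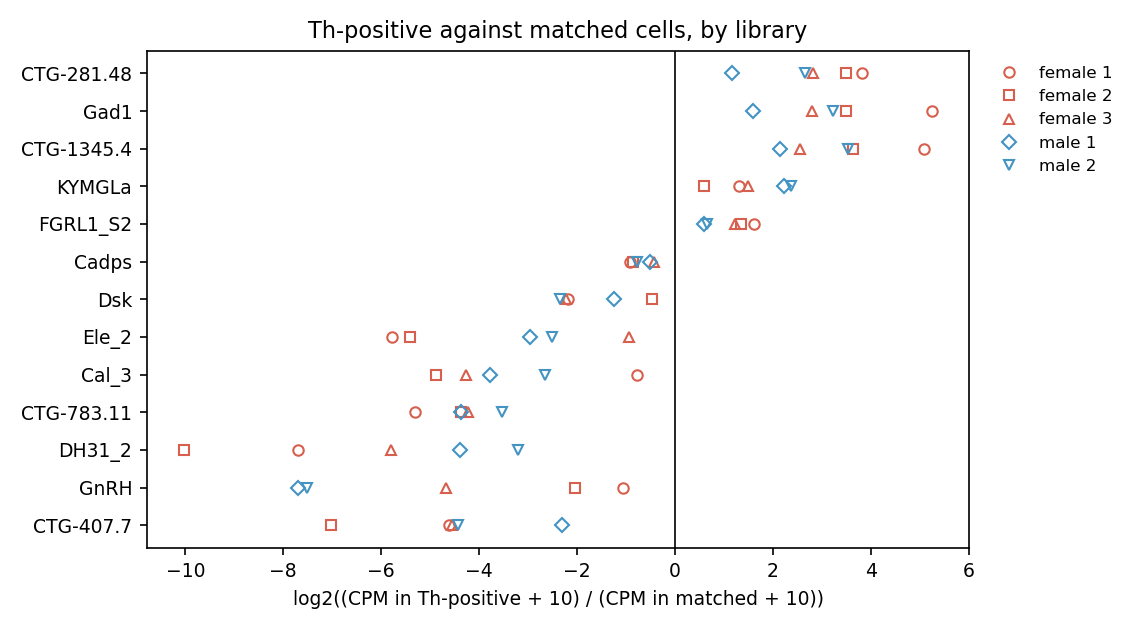
Difference between Th-positive and matched cells in each library for the named genes called, as log2 of (CPM in Th-positive + 10) over (CPM in matched + 10), with females in red and males in blue and 0 marking no difference. Gad1 lies right of 0 and DH31_2 left of 0 in all 5 libraries; the added 10 CPM shrinks differences of genes with low values.

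Octopaminergic cells were the other monoamine cells compared. Of 1795 genes tested against them, 23 were called (1.28% of genes), 7 higher in Th-positive cells (0.39%) and 16 lower (0.891%), and DESeq2 called 75 (4.18%). KYMGLa had the smallest p, at 0, 12.7, 26.4, 13.5 and 11.1 CPM in octopaminergic cells against the 171 to 650 CPM above (log2 4.95, SE 0.39, edgeR adjusted p = 4.99e-05). With 0, 1, 10, 5 and 1 UMIs in octopaminergic cells, it could pass the filter on low counts through the Th-positive cells alone. Its call is therefore given as a description. KYMGLa kept its call in every alternative that tested it, although its Th-positive UMIs in female 1 and in female 2 came from 1 cell each. In the other direction evm.TU.CTG-81.10 was 78.1, 0, 23.5, 23.4 and 14.8 CPM in Th-positive cells and 1036, 1002, 690, 617 and 667 CPM in octopaminergic cells (log2 -4.77, edgeR adjusted p = 0.000187), and evm.TU.CTG-1476.11 had a log2 difference of -4.58 with the same adjusted p. Both kept their calls in every alternative that tested them, but both were low in Th-positive cells and could pass the filter through the octopaminergic cells alone.

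The summed peptide share of UMIs was 8.10%, 6.84%, 5.84%, 7.63% and 9.54% in Th-positive cells and 0.520%, 4.10%, 4.65%, 11.2% and 3.11% in octopaminergic cells, higher in 4 of 5 libraries and lower in male 1. Of the 71 genes, 21 passed the filter, 3 were called higher and 0 lower, and the median log2 difference was 2.57 beside 0.0085 over all tested genes. A gene near 0 in octopaminergic cells could pass the filter through the Th-positive cells alone, so this count and median are a description and support nothing. AstB was 19.5, 3201, 4873, 1027 and 3448 CPM against 0, 178, 111, 62.3 and 22.2 CPM (log2 5.03, SE 0.45, edgeR adjusted p = 0.00131). The octopaminergic values of AstB rest on 0, 14, 42, 23 and 2 UMIs, so its call is also given as a description. Mip was 0, 33330, 8965, 11640 and 11910 CPM against 20.7, 1180, 1004, 723 and 88.9 CPM (log2 4.46, edgeR adjusted p = 0.0333), and female 1, which had no Dbh cell, ran the other way. In female 2, 1 cell held 74 of the 75 AstB UMIs and 770 of the 781 Mip UMIs, and in female 3, 1 cell held 1483 of the 1661 AstB UMIs. As the study lists nearly the same predicted protein for these 2 genes, their separate levels are uncertain and their calls are not 2 separate signals. Dbh itself was 0, 42.7, 202, 298 and 1761 CPM against the octopaminergic levels above (log2 -1.84, edgeR adjusted p = 0.222), a lower value in every library that did not pass the test.

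The named calls on the lower side were TPM, cib_S2 and AcCoAS_S5. TPM, tropomyosin, was 156, 128, 238, 194 and 133 CPM in Th-positive cells and 435, 279, 377, 376 and 300 CPM in octopaminergic cells (log2 -1.01, edgeR adjusted p = 0.0313). The actin-binding thymosin-beta gene cib_S2 (log2 -1.19, edgeR adjusted p = 0.0458) and AcCoAS_S5, an acetyl-CoA synthetase (log2 -1.38, adjusted p = 0.0333), were also lower. FGRL1_S2 (log2 2.00, edgeR adjusted p = 0.0291) and RGRF1, a Ras guanine nucleotide-releasing factor (log2 1.09, adjusted p = 0.0165), were higher, as were the unnamed evm.TU.CTG-1231.17 (log2 2.72) and evm.TU.CTG-1481.6 (log2 2.54). In Th-positive cells evm.TU.CTG-1481.6 had 1, 0, 296, 1894 and 456 UMIs, so it was not higher in every library. In male 2, 1 cell held 426 of the 456. Without the richest cell of each library it was 0, 0, 398, 2516 and 239 CPM. Apart from evm.TU.CTG-81.10, evm.TU.CTG-1476.11 and KYMGLa, the genes named here each lost their call under at least 2 alternatives.

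Against GABA cells few genes differed. Of 4264 genes tested, 5 were called (0.117% of genes), 3 higher (0.0704%) and 2 lower (0.0469%), while DESeq2 called 34 (0.797%). All 3 that were higher were peptide genes, of 33 on the list that passed the filter. A gene low in GABA cells, such as KYMGLa, could pass the filter through the Th-positive cells alone, so this count is a description. KYMGLa was 57.6, 25.9, 17.98, 18.5 and 10.3 CPM in GABA cells (log2 4.17, SE 0.53, edgeR adjusted p = 0.0233), below every Th-positive library, although all KYMGLa UMIs of female 1 (12) and of female 2 (4) came from 1 cell each. AstB was 13.3, 89.1, 208, 324 and 157 CPM there (log2 3.67, edgeR adjusted p = 0.0374). CHH/ITP_2, of the ion transport peptide family that in insects regulates water and ion balance, was 664, 1152, 546, 2111 and 4217 CPM in Th-positive cells and 341, 178, 137.5, 364 and 321 CPM in GABA cells (log2 2.27, edgeR adjusted p = 0.0374). Single cells carried much of that sum, with 26 of 34 CHH/ITP_2 UMIs of female 1, 27 of 27 of female 2, 65 of 186 of female 3, 659 of 991 of male 1 and 564 of 570 of male 2 in 1 cell each. Without the richest cell of each library CHH/ITP_2 was 252, 0, 392, 726 and 45.9 CPM, above the GABA cells in female 3 and male 1 only. With at least 2 Th UMIs required of every cell, its difference was -0.14. The lower genes were evm.TU.CTG-732.28 (log2 -2.36, edgeR adjusted p = 0.0233) and evm.TU.CTG-458.1 (log2 -4.33, adjusted p = 0.042). In Th-positive cells evm.TU.CTG-458.1 had 0, 0, 0, 2 and 0 UMIs. It could pass the filter through the GABA cells alone, so its call is a description. Without female 3, without male 1 or without male 2 no gene was called.

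Between the sexes no gene was called in Th-positive cells by edgeR among 2572 tested (0.0% of genes), 64 had an unadjusted p under 0.05, and DESeq2 called 5 (0.194%). The sums behind the female side were small, 51198, 23433 and 340888 UMIs, beside 469451 and 135169 in males. CHH/ITP_2 had the smallest p of the listed genes, with males at 2111 and 4217 CPM above females at 664, 1152 and 546 CPM (log2 2.09, SE 0.47, edgeR adjusted p = 0.923). Gad1 was 977, 427 and 337 CPM in females and 89.5 and 237 CPM in males (log2 -1.79, adjusted p = 0.997), and Dbh was 0, 42.7 and 202 against 298 and 1761 CPM (log2 3.42, adjusted p = 0.997). For each of these 3 genes the sexes did not overlap, and none passed the test. For CHH/ITP_2 they overlapped without the richest cell of each library (252, 0 and 392 CPM in females, 726 and 45.9 CPM in males). The difference of the Th-positive against matched effect between the sexes was also tested in 1 model, where 0 of 4996 genes were called and 88 had an unadjusted p under 0.05.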

How the data were processed

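Brains were dissociated and run as 10x 3′ v3 libraries. The authors aligned reads to their own H. graminicola genome and deposited Cell Ranger 4.0.0 UMI counts per gene and barcode. Kept cells were set as the report states, over 19195 genes of which 37 are mitochondrial. The Th-positive rule, the gene lists and the tests were chosen with earlier results of these data known. Counts were summed per library and cell kind and tested with edgeR 4.0.16 in R 4.3.3 (filterByExpr, TMM, quasi-likelihood, library as a block, Benjamini-Hochberg at 0.05), after a check on simulated counts. Th, Ddc and Tdc2 were left out of tests between cells, with Gad1 or Dbh where these chose the cells. DESeq2 1.42.0 was an alternative. Doublets were scored against simulated pairs (0.8% expected per 1000 barcodes) and removed only in an alternative. Named genes are all genes of the lists, and, per comparison, up to 15 called genes with a name and 2 without in each direction that moved alike in every library. Names came from the part of the study's tables used here (1616 names).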

Additional observations from a re-analysis of the deposited data

Results flagged for a closer look

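For 4 listed genes, every female library differed between Th-positive and matched cells in 1 direction and every male library in the other. Proc was 293, 7639 and 7299 CPM in female Th-positive cells and 14470 and 21140 CPM in male ones, against 21870, 15370, 17040, 12230 and 12720 CPM in matched cells. Its mean male minus female gap was 18350 CPM. AstCCC, an allatostatin CCC precursor, had a gap of 252.9 CPM in the same direction, and ALP_1 had one of 34.67 CPM. The receptor-list gene evm.TU.CTG-627.10 had a gap of -53.35 CPM. The difference between the sexes was tested as an interaction over 4996 genes: log2 3.12 for Proc, 2.37 for AstCCC, 1.40 for ALP_1 and -1.25 for evm.TU.CTG-627.10. Each had an edgeR adjusted p of 1.0, so none passed. The 3 female sums rest on 10, 7 and 39 cells and female 1 had no Dbh cell, the kind in which Proc was most often rich; the part of cell make-up in these gaps was not tested.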

How the results depend on the processing

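Counts of genes called moved with most choices. Against matched cells the 37 calls became 81 with DESeq2, 182 with no filter on low counts, 23 with at least 2 Th UMIs, 20 without cells called doublets, 10 with a mitochondrial share under 20%, 209 with all other kept cells as the reference, 18 with another random draw (16 shared) and 2 with 5 matched cells per Th-positive cell (1 shared), and leaving out a library gave 12 to 44. Against octopaminergic cells 23 became 75 with DESeq2, 74 unfiltered, 7 with at least 2 Th UMIs, 10 without doublet calls, 15 with 250 to 3000 genes and 3 with the stricter mitochondrial limit, and 7 to 29 without a library. Against GABA cells 5 became 34, 98, 1, 4, 10 and 1 under those 6 settings in that order, 14 with no library block, and 0 to 10 without a library. With against without Dbh, 3 became 95 with DESeq2, 44 with at least 2 Th UMIs, 5 without doublet calls, 7 with 250 to 3000 genes and 13 with no library block, and 0 to 69 without a library. Between the sexes 0 became 5 with DESeq2, 43 unfiltered and 1 with 250 to 3000 genes, and 0 to 1 without a library. The cause was not tested.

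Results that changed sign were CHH/ITP_2 against GABA cells (-0.14 with at least 2 Th UMIs), the sex difference in the share of Th-positive cells (-0.00179 when thinned, and -0.0364 to 0.343 without a library) and the Trh share difference (0.0048 without female 3, where the range was -0.65 to 0.0048). Of the genes called against matched cells, evm.TU.CTG-8.3, which has no name, had a log2 difference of -4.16 and one of 1.28 with matched cells under 3 UMIs of the hemocyte, glia and fat body genes, a setting that called 25 genes (22 shared). The Gad1, Dbh, Vmat and VAChT differences kept their direction in every alternative run.

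The replicate numbers shared by the sexes are names only: deviations of same-numbered libraries had r of -0.0298 and 0.0333. With a replicate block the sex comparison called 0 genes, as without it, and 117 had an unadjusted p under 0.05 against 64.

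Precision is limited by 7 to 48 Th-positive cells per library, by pooled brains and by the depth of 2 female libraries. With 4 or 5 libraries in which cells of a kind can number 1, a call or its loss under one setting says little about the size of a difference.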
